A study of Homo sapiens with 8 samples.

Results

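The transcripts of 46 ribosome biogenesis and nucleolar genes were followed in LM2 cells, in which the drug Ponatinib and shRNAs against ABL1 and ABL2 had been compared by RNA sequencing. The members were a list of gene symbols, matched to the 58688 Ensembl genes counted in every sample, and all 46 were found and passed the filter on low counts in both experiments. LM2 is a lung metastatic line derived from MDA-MB-231, a human triple negative breast cancer line. In the drug experiment LM2 cells received DMSO, the solvent, or 1 µmol/L of Ponatinib during 6 h, with 2 samples each. In the shRNA experiment LM2 cells had been made stable with lentivirus carrying a scrambled hairpin (shCtrl), ABL1 shRNA, ABL2 shRNA or the hairpins against both genes (ABL1/ABL2 shRNA), with 1 sample each and no replicates. Ponatinib inhibits ABL and several other tyrosine kinases, so the drug and the knockdowns do not hit the same set of proteins, and they also differ in how long the cells were exposed. The labels do not say whether the 2 repeats of a group came from separate cultures, so p-values measure the spread between these samples, which may be technical.

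Ribosomes are built in the nucleolus. RNA polymerase I transcribes the long precursor of the ribosomal RNAs, small nucleolar ribonucleoproteins (snoRNPs) modify and help to cut it, and large sets of assembly factors, helicases and GTPases fold it with ribosomal proteins into the small and the large subunit. The rate of this work follows cell growth, and the nucleolus is often enlarged in tumour cells. MYC, a transcription factor of growing cells, is known to bind E-box motifs near the start of many of these genes and to raise their transcription, and for that reason its level is given beside theirs.

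Counts on genes ranged from 7568934 to 13010896 per sample, and no member had fewer than 30 counts in any DMSO or Ponatinib sample. Levels are in CPM, a gene's counts as a share of the library put on a fixed scale, after TMM scaling, which sets the samples to a common scale from the genes that change least. The line's mesenchymal markers VIM, CD44, ZEB1, AXL and CAV1 were between 86.6 and 3179 CPM in all 8 samples, PGR had 0 counts in all 8, ESR1 was at or under 0.869 CPM and CDH1 at or under 1.77 CPM, while ERBB2 was at 52.7 to 68.0 CPM and the epithelial genes EPCAM at 5.08 to 12, KRT8 at 239.5 to 804 and KRT18 at 146 to 309.7 CPM. The blood markers PTPRC, CD3E and CD68 stayed at or under 0.348 CPM and DCN, of fibroblasts, at or under 0.345 CPM. The endothelial markers PECAM1 and VWF ranged from 2.38 to 40.1 and from 0.0869 to 1.31 CPM, and the fibroblast markers COL1A1 and PDGFRB from 61.3 to 398 and from 1.48 to 8.51 CPM. The share of counts on mitochondrial genes was 2.98% and 3.21% with DMSO, 3.74% and 3.72% with Ponatinib and 3.79% to 4.17% in the shRNA samples. In the column headings of their files, the shCtrl and ABL1 shRNA samples carry the name of the opposite condition. The ABL1 counts, 2159 in the sample labelled shCtrl and 944 in that labelled ABL1 shRNA, go with the labels, which were used.

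After 6 h of Ponatinib nearly the whole set was lower. Of the 46 members, 40 fell and 0 rose at an adjusted p under 0.05 (edgeR quasi-likelihood test, Benjamini-Hochberg over 16031 genes), whereas 15.7% of all genes tested fell and 15.0% rose. Whether or not the test was passed, 45 of 46 had a log2 fold change below 0 (50.6% of all genes), and in 42 both Ponatinib samples lay below both DMSO samples (32.8% of all genes). The median log2 fold change was -0.54 over the members and -0.0047 over all genes tested. Because these genes are well expressed, the genes with a mean count of at least 100 are a closer background, and among those 20.9% fell, 17.8% rose and the median was -0.021. A fold change over 2 with an unadjusted p under 0.05, the rule of the study, was met downward by 6 members, RRS1, PPAN, BYSL, NOP16, WDR43 and NIP7, and by 2.29% of all genes. Together the 46 members held 0.675% and 0.661% of the counts with DMSO and 0.516% and 0.50% with Ponatinib. In bulk RNA these values are shares of all counts, so they do not show whether the total RNA per cell changed. A change in all cells cannot be told apart from a change in part of them. MYC fell in the same samples, from 171 and 179 CPM to 96.5 and 97.6 CPM, with a log2 fold change of -0.85 (SE 0.065, edgeR adjusted p = 1.5e-07).

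**Figure D1:**
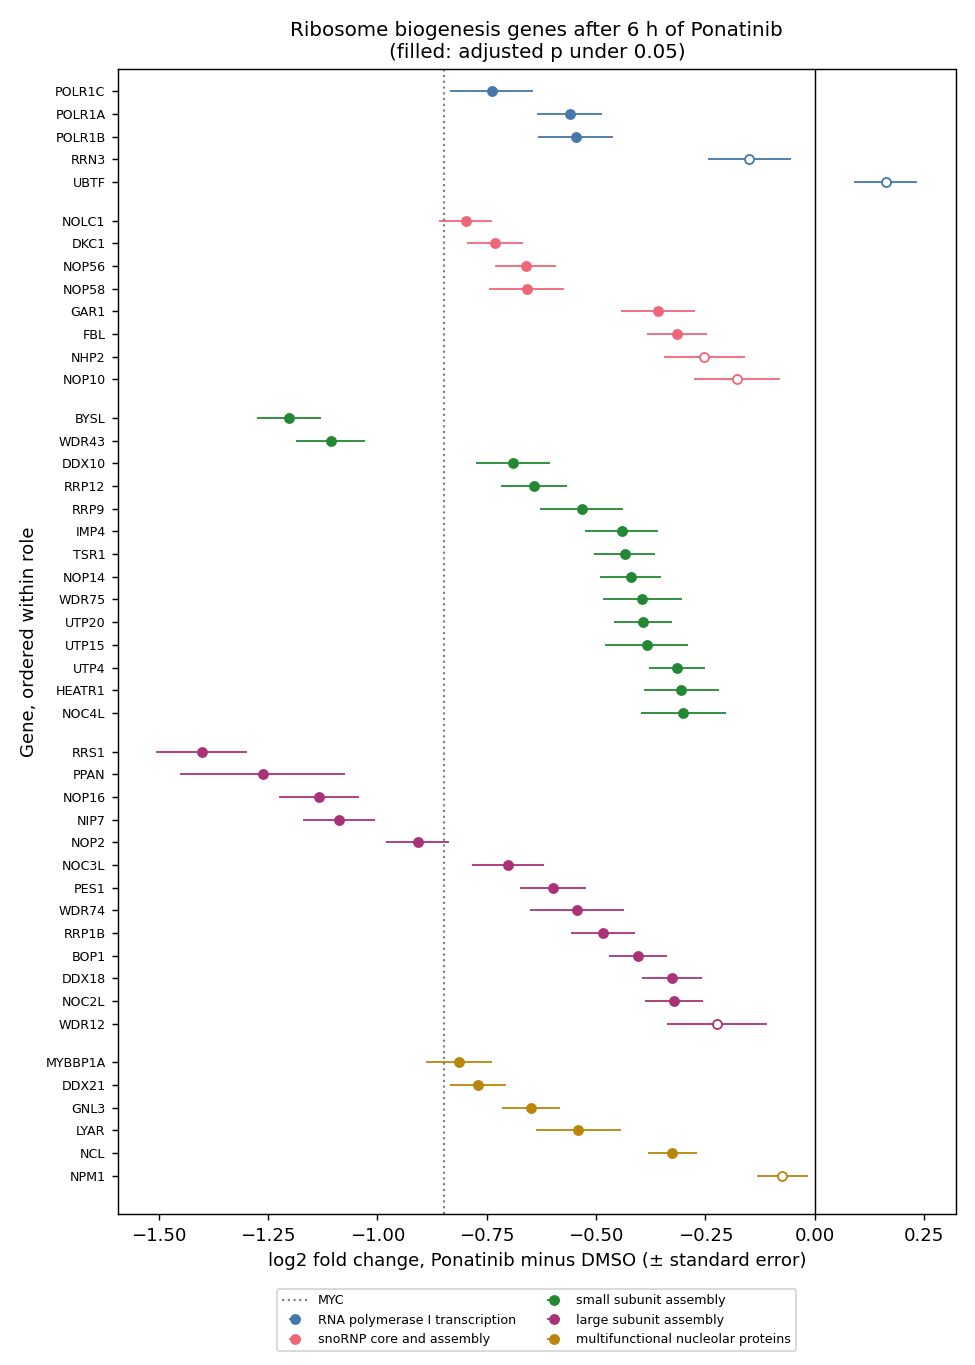
The log2 fold change (Ponatinib minus DMSO, horizontal axis, bars ± standard error) of each of the 46 genes, ordered within 5 roles, with filled points for an adjusted p under 0.05 and a dotted line at MYC. All points but UBTF (0.16) lie left of 0, and 7 genes lie left of the MYC line at -0.85.

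**Figure D2:**
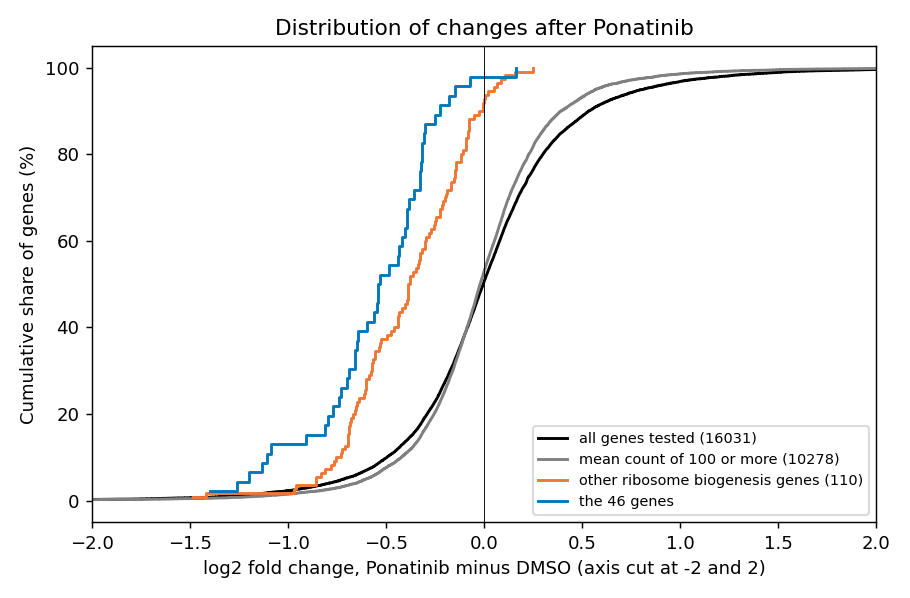
Cumulative share of genes (vertical axis, %) by log2 fold change with Ponatinib (horizontal axis, cut off at 2 on either side of 0) for the 46 members, 110 other ribosome biogenesis genes, the 10278 genes with a mean count of at least 100 and all 16031 genes tested. The curve of the members runs to the left of the others, with its median at -0.54 against -0.38 for the other ribosome biogenesis genes and -0.0047 for all genes.

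The promoters of members that moved together are shown here, since these genes are described by what they share. RefSeq promoter windows (GRCh38.p14, from 250 bases before to 50 bases after the start) were matched to 39 of the 46 members, and each matched member's window starts transcription at the same base as its Ensembl canonical transcript. The 7 members without a window were RRS1, NOLC1, NOP58, RRP12, BOP1, DDX18 and RRP1B. All of them fell, RRS1 furthest of the 46, and none enters the motif counts below. For each of the 5 roles the window of the matched member with the largest fall is printed, followed by those of UBTF and NPM1, which did not pass the test. Each is given 5′ to 3′ on the gene's own strand, with the E-box CACGTG in capitals where it occurs. The windows are chr6:43516839-43517138 (plus strand) for POLR1C, chrX:154762614-154762913 (plus) for DKC1, chr6:41921249-41921548 (plus) for BYSL, chr19:10106112-10106411 (plus) for PPAN, chr17:4555335-4555634 (minus) for MYBBP1A, chr17:44219626-44219925 (minus) for UBTF and chr5:171387599-171387898 (plus) for NPM1.
POLR1C: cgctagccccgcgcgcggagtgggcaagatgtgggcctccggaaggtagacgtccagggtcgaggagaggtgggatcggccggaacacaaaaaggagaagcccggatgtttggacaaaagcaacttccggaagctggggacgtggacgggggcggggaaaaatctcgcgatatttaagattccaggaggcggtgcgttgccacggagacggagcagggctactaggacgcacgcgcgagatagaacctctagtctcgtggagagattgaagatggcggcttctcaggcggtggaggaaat
DKC1: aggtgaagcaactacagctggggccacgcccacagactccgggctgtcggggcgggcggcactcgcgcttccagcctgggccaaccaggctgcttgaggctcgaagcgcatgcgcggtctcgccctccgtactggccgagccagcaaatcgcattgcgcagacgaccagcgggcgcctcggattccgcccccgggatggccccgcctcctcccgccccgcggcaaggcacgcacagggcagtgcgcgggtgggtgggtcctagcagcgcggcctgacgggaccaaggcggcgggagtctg
BYSL: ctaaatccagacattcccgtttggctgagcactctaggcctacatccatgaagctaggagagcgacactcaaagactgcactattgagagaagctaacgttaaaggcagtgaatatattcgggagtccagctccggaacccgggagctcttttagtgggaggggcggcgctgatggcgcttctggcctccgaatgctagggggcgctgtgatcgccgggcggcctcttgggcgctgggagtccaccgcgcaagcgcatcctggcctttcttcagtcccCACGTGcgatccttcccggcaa
PPAN: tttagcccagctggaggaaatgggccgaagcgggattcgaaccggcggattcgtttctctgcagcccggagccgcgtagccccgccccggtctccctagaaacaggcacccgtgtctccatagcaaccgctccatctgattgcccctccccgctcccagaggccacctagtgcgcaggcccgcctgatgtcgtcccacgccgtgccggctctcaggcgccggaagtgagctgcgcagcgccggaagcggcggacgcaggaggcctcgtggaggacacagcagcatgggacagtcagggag
MYBBP1A: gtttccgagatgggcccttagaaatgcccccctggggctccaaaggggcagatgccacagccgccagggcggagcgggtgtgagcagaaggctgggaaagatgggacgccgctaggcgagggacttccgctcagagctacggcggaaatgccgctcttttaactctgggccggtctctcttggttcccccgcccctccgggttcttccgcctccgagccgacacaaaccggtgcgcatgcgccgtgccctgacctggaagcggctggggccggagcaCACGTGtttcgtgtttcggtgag
UBTF: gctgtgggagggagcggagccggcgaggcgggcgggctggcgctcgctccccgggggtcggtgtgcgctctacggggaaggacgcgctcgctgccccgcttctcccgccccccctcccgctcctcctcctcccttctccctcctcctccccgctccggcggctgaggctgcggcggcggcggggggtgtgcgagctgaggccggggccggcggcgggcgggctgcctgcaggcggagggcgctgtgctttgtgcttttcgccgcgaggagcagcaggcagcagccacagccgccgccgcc
NPM1: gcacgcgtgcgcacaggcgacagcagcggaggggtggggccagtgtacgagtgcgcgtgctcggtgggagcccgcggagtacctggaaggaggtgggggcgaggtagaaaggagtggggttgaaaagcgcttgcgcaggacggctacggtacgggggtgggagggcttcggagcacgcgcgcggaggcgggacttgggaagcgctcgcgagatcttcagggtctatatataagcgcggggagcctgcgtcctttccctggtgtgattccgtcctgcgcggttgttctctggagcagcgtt

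The E-box letters CACGTG, which read the same on either strand, were in 15 of the 39 member windows (38.5%). They were in 7.26% of all 35116 promoter windows of the same length, in 8.51% of 17747 genes with 1 window each and in 10.2% of the 10173 of those genes that were tested, while 27 of 95 windows of the other ribosome biogenesis genes held them (28.4%). Counting the start as base 1 and the base before it as -1, the E-box began at base 29 in BYSL, 28 in MYBBP1A, 4 in WDR43 and 36 in NOP2. It began at base 32 in GAR1, 16 in NOP14, 20 in NOC3L, 14 in PES1 and 7 in both FBL and GNL3, so in all of these just after the start. It lay before the start in RRP9 (base -5), UTP20 (base -10) and UTP4 (base -16), and NOP10 (bases -170 and -11) and IMP4 (bases -203 and 16) held a pair. With an E-box, 14 of 15 members fell (93.3%, median log2 fold change -0.53), and without it 19 of 24 fell (79.2%, median -0.49). Among the other ribosome biogenesis genes the shares were 25 of 27 (92.6%, median -0.57) and 37 of 68 (54.4%, median -0.29), and among all tested genes with a window 22.4% and 17.4%. Members fell with and without these letters in their windows, and the printed windows of PPAN, DKC1 and POLR1C hold none. Other forms of the E-box and bases outside the windows were not searched, and whether MYC acts on these genes here was not tested.

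The letters CCGGAAG, one form of the motif of ETS factors, were searched on both strands, and a match of theirs cannot overlap an E-box. They were in 15 of 39 member windows (38.5%), in 40 of 95 windows of the other ribosome biogenesis genes (42.1%), in 10.3% of all windows and in 20.4% of tested genes. POLR1C held them at 3 places (bases -212, -127 and -124) and PPAN (-32 and -11), TSR1 (-28 and -8) and NOP16 (-19 and -16) at 2 each, where matches 3 bases apart are the same letters read on either strand. Members with the motif had a median log2 fold change of -0.54 and those without it -0.43, and 13 of 15 (86.7%) and 20 of 24 (83.3%) fell. In the other ribosome biogenesis genes the medians were -0.38 on either side, and 24 of 40 with the motif (60%) and 38 of 55 without it (69.1%) fell. Among all tested genes with a window the shares that fell were 19.7% and 17.4%. Other forms of the ETS motif were not searched, and whether ETS factors act on these genes here was not tested.

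Of the 5 RNA polymerase I genes among the members, the 3 subunits of the enzyme fell, and RRN3 and UBTF, which act at initiation, did not pass the test. The 5 genes had a median log2 fold change of -0.55. POLR1C (ENSG00000171453.14), a subunit shared with RNA polymerase III, was at 44.6 and 42.5 CPM with DMSO and at 27.4 and 24.6 CPM with Ponatinib. Its log2 fold change was -0.74 (SE 0.095, edgeR adjusted p = 3.1e-05). POLR1A (ENSG00000068654.12), the largest subunit with the catalytic centre, went from 160.5 and 166 CPM to 103 and 119.7 CPM. The groups did not overlap and the log2 fold change was -0.56 (SE 0.074, edgeR adjusted p = 4.2e-05). POLR1B (ENSG00000125630.12), the second largest subunit, went from 52.6 and 48.6 CPM to 34.5 and 34.9 CPM (log2 fold change -0.55, SE 0.086, edgeR adjusted p = 0.00020).

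RRN3, which carries the polymerase to its promoter, was at 43.5 and 38.5 CPM with DMSO and 35.6 and 38.8 CPM with Ponatinib, so the groups overlapped (log2 fold change -0.15, SE 0.094, edgeR adjusted p = 0.26). Reads of RRN3 are uncertain, because 4 gene copies named after it held as much as 19.6% of its counts. UBTF, the DNA-binding factor that keeps ribosomal genes open, was the 1 member above 0, at 104.9 and 104.5 CPM with DMSO and 124 and 109 CPM with Ponatinib. At 0.16 (SE 0.072) on the log2 scale it missed the threshold (edgeR adjusted p = 0.10). With scaling by total counts alone UBTF was called as higher (0.21, edgeR adjusted p = 0.040), and so it was without Ponatinib replicate 2 (0.24, edgeR adjusted p = 0.0010).

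**Figure D3:**
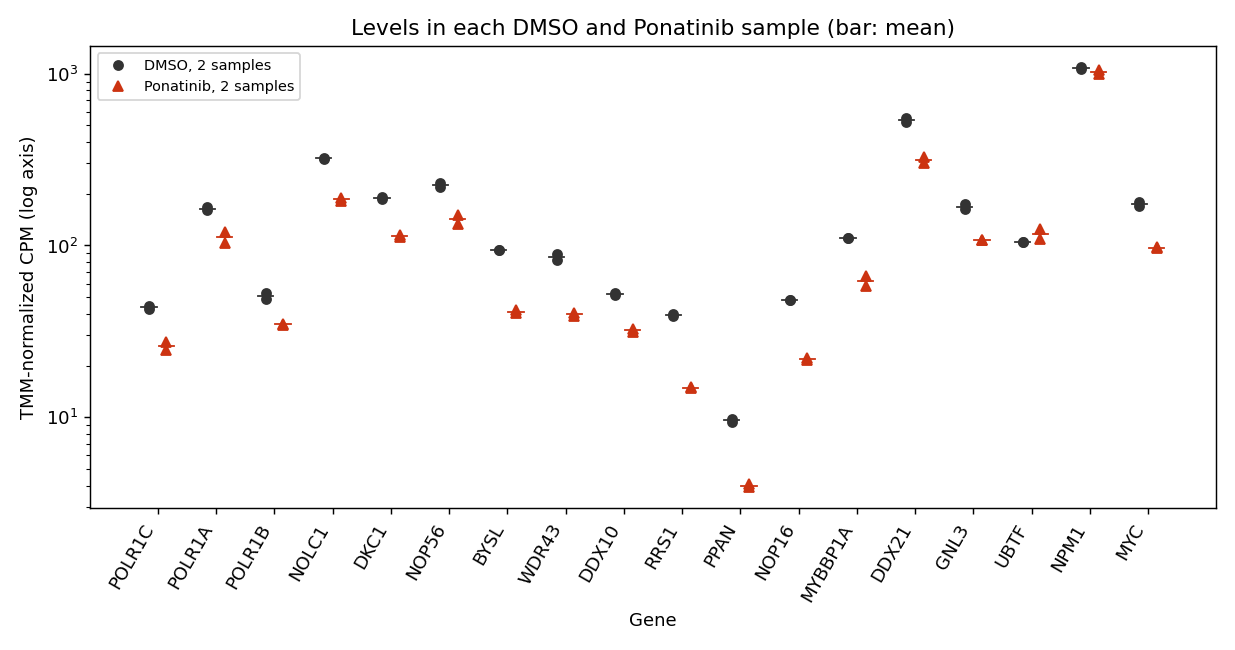
TMM-normalized CPM (vertical log axis) in each of the 2 DMSO samples (circles) and 2 Ponatinib samples (triangles), with bars at the means, for the 15 members named by role, UBTF, NPM1 and MYC. The Ponatinib samples lie below the DMSO samples in all 15 and in MYC, lie above them in UBTF, and lie close below them in NPM1.

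Of the 8 snoRNP genes 6 fell, with a median log2 fold change of -0.51. NOLC1 (ENSG00000166197.13), a phosphoprotein that chaperones snoRNPs to the nucleolus, was at 319 and 325 CPM with DMSO and 182 and 188 CPM with Ponatinib. Its log2 fold change was -0.80 (SE 0.060, edgeR adjusted p = 1.3e-07), the largest of this role and close to that of MYC. DKC1 (ENSG00000130826.12), the pseudouridine synthase of the H/ACA particles, went from 193 and 186 CPM to 116 and 112 CPM (log2 fold change -0.73, SE 0.063, edgeR adjusted p = 5.5e-07). NOP56 (ENSG00000101361.11), a core protein of the box C/D particles, went from 231 and 219.6 CPM to 151 and 133 CPM (log2 fold change -0.66, SE 0.070, edgeR adjusted p = 4.4e-06). The exons of DKC1 and NOP56 share bases with snoRNA genes that were counted separately.

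Partners within a particle did not fall by one amount. In the box C/D particle, NOP56 (-0.66) and NOP58 (-0.66) had fallen by more than FBL (-0.32), the methyltransferase, which went from 243 and 246 CPM to 208 and 184 CPM. In the H/ACA particle, DKC1 (-0.73) had the lowest log2 fold change and GAR1 (-0.36) also fell. NHP2 (-0.25, edgeR adjusted p = 0.0504) had both Ponatinib samples, 37.7 and 33.1 CPM, below both DMSO samples, 41.6 and 43.3 CPM, and just missed the threshold. NOP10 (-0.18, edgeR adjusted p = 0.19) overlapped, with 82.7 and 79.1 CPM against 80.3 and 61.3 CPM. Single samples decided some of these calls: without Ponatinib replicate 1 NHP2 (-0.35, edgeR adjusted p = 0.0071) and NOP10 (-0.39, edgeR adjusted p = 3.3e-05) were called, and without DMSO replicate 1 GAR1 was not (-0.34, edgeR adjusted p = 0.056). Differences between members, here and in the other roles, were not tested.

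All 14 small subunit assembly genes fell, with log2 fold changes from -1.20 to -0.30 and a median of -0.43. BYSL (ENSG00000112578.6), bystin, a factor of late small subunit precursors, was at 94.5 and 94.3 CPM with DMSO and 40.3 and 41.9 CPM with Ponatinib. That is a log2 fold change of -1.20 (SE 0.074, edgeR adjusted p = 1.2e-08), with less than 2 CPM between the samples of a group. WDR43 (ENSG00000163811.8) belongs to the UTP proteins that join the nascent precursor and are needed for its transcription, and it went from 88.9 and 81.9 CPM to 39.0 and 40.6 CPM (log2 fold change -1.11, SE 0.079, edgeR adjusted p = 6.9e-08). DDX10 (ENSG00000178105.6), an RNA helicase, went from 51.2 and 52.7 CPM to 32.7 and 31.5 CPM (log2 fold change -0.69, SE 0.085, edgeR adjusted p = 1.9e-05).

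The other members of WDR43's group had smaller log2 fold changes, -0.39 for WDR75, -0.38 for UTP15, -0.32 for UTP4 and -0.31 for HEATR1. The remaining falls were those of RRP12 (-0.64), a factor of nuclear export, RRP9 (-0.53), which binds the U3 snoRNA, IMP4 (-0.44), a U3 partner, TSR1 (-0.43), a late GTPase-like factor, NOP14 (-0.42), UTP20 (-0.39) and NOC4L (-0.30), the partner of NOP14. NOC4L was at 30.8 and 30.4 CPM with DMSO and 24.5 and 25.2 CPM with Ponatinib, so the groups did not overlap, but its call was the least stable. It was lost with DESeq2 (adjusted p = 0.23), with total count scaling (edgeR adjusted p = 0.062) and without DMSO replicate 1, DMSO replicate 2 or Ponatinib replicate 1 (edgeR adjusted p = 0.18, 0.14 and 0.090). The HEATR1 call was lost with DESeq2 (adjusted p = 0.068) and without DMSO replicate 1 (-0.22, edgeR adjusted p = 0.22) or Ponatinib replicate 1 (-0.17, edgeR adjusted p = 0.087). The UTP15 call was lost with DESeq2 (adjusted p = 0.066) and without DMSO replicate 2 (edgeR adjusted p = 0.090), and the WDR75 call without DMSO replicate 1 (-0.27, edgeR adjusted p = 0.14).

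Of the 13 large subunit assembly genes 12 fell, with a median log2 fold change of -0.60, and 4 of the 6 members over 2-fold are in this group. RRS1 (ENSG00000179041.3), which helps to load a small ribonucleoprotein into the large subunit precursor, fell furthest of the 46, from 39.7 and 38.7 CPM to 14.9 and 14.7 CPM. Its log2 fold change was -1.40 (SE 0.10, edgeR adjusted p = 1.1e-07), and the groups lay far apart. PPAN (ENSG00000130810.16), a large subunit factor of the Brix family, went from 9.82 and 9.42 CPM to 4.09 and 3.90 CPM (log2 fold change -1.26, SE 0.19, edgeR adjusted p = 0.00013). It had the fewest counts of the members, 30 to 111 per sample, and the largest standard error, and its exons overlap the readthrough gene PPAN-P2RY11 and P2RY11, so its reads on shared exons are uncertain. NOP16 (ENSG00000048162.16), a nucleolar factor known as a MYC target, went from 48.0 and 48.2 CPM to 22.2 and 21.6 CPM (log2 fold change -1.13, SE 0.092, edgeR adjusted p = 2.8e-07).

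NIP7 (-1.09) and NOP2 (-0.91), an rRNA cytosine methyltransferase, also fell by more than MYC. NOP2 stood at 133 and 142 CPM with DMSO and at 76.6 and 69.6 CPM with Ponatinib. NOC3L (-0.70) and NOC2L (-0.32) are partners in export of the precursor, and the former went from 69.7 and 68.9 CPM to 40.1 and 45.7 CPM while the latter went from 103 and 102 CPM to 82.8 and 81.6 CPM. In the PeBoW complex, PES1 (-0.60) and BOP1 (-0.40) fell. Their partner WDR12 (-0.22, edgeR adjusted p = 0.16), did not pass the test, with DMSO samples at 50.8 and 41.1 CPM overlapping Ponatinib samples at 43.4 and 34.9 CPM. The last falls of this role were those of WDR74 (-0.54), RRP1B (-0.48) and the helicase DDX18 (-0.33). WDR12 was called without DMSO replicate 2 (-0.37, edgeR adjusted p = 0.045) or without Ponatinib replicate 1 (-0.39, edgeR adjusted p = 0.0013), and DDX18 was not called without DMSO replicate 1 (-0.28, edgeR adjusted p = 0.073).

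Of the 6 nucleolar proteins with several functions 5 fell, with a median log2 fold change of -0.59. MYBBP1A (ENSG00000132382.11), a MYB-binding protein found with RNA polymerase I, went from 109.8 and 111 CPM to 66.6 and 58.3 CPM (log2 fold change -0.81, SE 0.075, edgeR adjusted p = 1.0e-06). DDX21 (ENSG00000165732.9), an RNA helicase of nucleolus and nucleoplasm, went from 549 and 523 CPM to 301 and 328 CPM (log2 fold change -0.77, SE 0.063, edgeR adjusted p = 3.3e-07). GNL3 (ENSG00000163938.13), the GTPase nucleostemin, went from 174 and 163 CPM to 107 and 108 CPM (log2 fold change -0.65, SE 0.065, edgeR adjusted p = 2.6e-06). LYAR (-0.54), a zinc finger protein, and NCL (-0.33), nucleolin, also fell, NCL from 1069 and 1061 CPM to 867 and 831 CPM.

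NPM1, nucleophosmin, the histone and assembly chaperone of the nucleolus, did not pass the test. It was at 1094 and 1058 CPM with DMSO and 1054 and 989 CPM with Ponatinib (log2 fold change -0.07, SE 0.058, edgeR adjusted p = 0.36). Leaving out Ponatinib replicate 1 gave a call as lower, at -0.11 (edgeR adjusted p = 0.030). Its level is uncertain, since the files count 49 gene copies named after NPM1, and before TMM scaling these copies together held 332 to 338 CPM in the DMSO and Ponatinib samples but 10.2 to 16.3 CPM in the shRNA samples. What set the copies apart between the 2 experiments was not tested, and NPM1 levels are not compared between them. The sum of NPM1 and its copies was 1409 and 1378 CPM with DMSO and 1399 and 1336 CPM with Ponatinib, which overlap. Of the members, 12 have copies named after them, and 22 share exon bases with another counted gene.

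The members that fell ranged in level from PPAN to NCL. Per kilobase of canonical transcript, the DMSO mean was highest for NPM1 (815 CPM per kb), NCL (271), FBL (217) and NOP10 (160), of which NCL and FBL fell by 0.33 and 0.32 on the log2 scale, and NPM1 and NOP10 did not pass the test. NOP56 (118) and DDX21 (115) came next and fell by 0.66 and 0.77. PPAN, which had the lowest level (4.18 CPM per kb), fell by 1.26, but WDR12 (5.70) and POLR1B (6.72), next to it in level, had log2 fold changes of -0.22 and -0.55. Over the 46 members Spearman's rho of the log2 fold change was -0.045 with the DMSO level per kilobase, 0.030 with the DMSO level in CPM and 0.065 with transcript length, as a description across genes of the same 4 libraries.

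The other genes of the pathway moved in the same direction. A list of 110 further ribosome biogenesis genes, chosen like the members with earlier results of these data known, was all tested. Of these 72 fell and 1 rose at an adjusted p under 0.05, with a median log2 fold change of -0.38. Of all genes tested 15.7% fell and 15.0% rose, and among genes with a mean count of at least 100 the shares were 20.9% and 17.8%. By role, 7 of 11 RNA polymerase I genes, 31 of 42 small subunit genes, 24 of 38 large subunit genes and 10 of 19 genes of the exosome and of RNase MRP/P fell. Of the RNA polymerase I genes, the initiation factors TAF1A (-0.61, edgeR adjusted p = 0.0016) and TAF1D (-0.21, edgeR adjusted p = 0.033) fell. The initiation factors TAF1B (-0.12, edgeR adjusted p = 0.35) and TAF1C (0.16, edgeR adjusted p = 0.22) were not called. Nor was the subunit POLR1D (-0.075, edgeR adjusted p = 0.50). These genes were named after their values were seen. URB2, a large subunit factor, fell furthest, from 50.9 and 52.4 CPM to 16.4 and 21.0 CPM (log2 fold change -1.48, edgeR adjusted p = 9.4e-08). POLR1G, a subunit of RNA polymerase I, went from 12.8 and 12.4 CPM to 5.32 and 3.90 CPM (log2 fold change -1.42, edgeR adjusted p = 3.2e-05). RPP25, a protein of RNase MRP and RNase P, fell by 0.97 (edgeR adjusted p = 5.4e-06) and EXOSC4, a ring subunit of the exosome, by 0.96 on that scale (edgeR adjusted p = 0.00011). The single rise was that of EXOSC8, another ring subunit, from 63.2 and 69.1 CPM to 80.8 and 76.0 CPM (log2 fold change 0.25, edgeR adjusted p = 0.019), and it was the rise that was lost without either DMSO replicate and with DESeq2, where 0 of the 110 rose.

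The knockdowns of the ABL kinases were each compared with the 1 shCtrl sample, to ask whether partial loss of ABL1 or ABL2 transcripts touches the same genes. There is no replicate of a knockdown, so no test is given here and a member is counted as lower or higher when it is past 1.5-fold. A fit that borrows its spread from the drug experiment is given last. Intervals are 95% exact intervals of the ratio of counts and cover counting error only. The targeted genes were lower in their own knockdowns. ABL1 was at 190 CPM with shCtrl, 72.9 with ABL1 shRNA and 109 with ABL1/ABL2 shRNA. ABL2 was at 236 CPM with shCtrl, 93.7 with ABL2 shRNA and 148 with ABL1/ABL2 shRNA. So ABL1 and ABL2 kept 38.4% and 39.6% of shCtrl in the single knockdowns. With ABL1/ABL2 shRNA they kept 57.6% and 62.5%, which makes it the weaker knockdown of each gene. MYC was at 121 CPM with shCtrl, 110.1 with ABL1 shRNA (log2 fold -0.14), 71.5 with ABL2 shRNA (-0.76) and 99.2 with ABL1/ABL2 shRNA (-0.29). For reference, Ponatinib itself changed ABL1 by 0.19 and ABL2 by -1.02 on the log2 scale. All 3 knockdowns share 1 control, so a value that was high or low in shCtrl moves all 3 folds together.

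**Figure D4:**
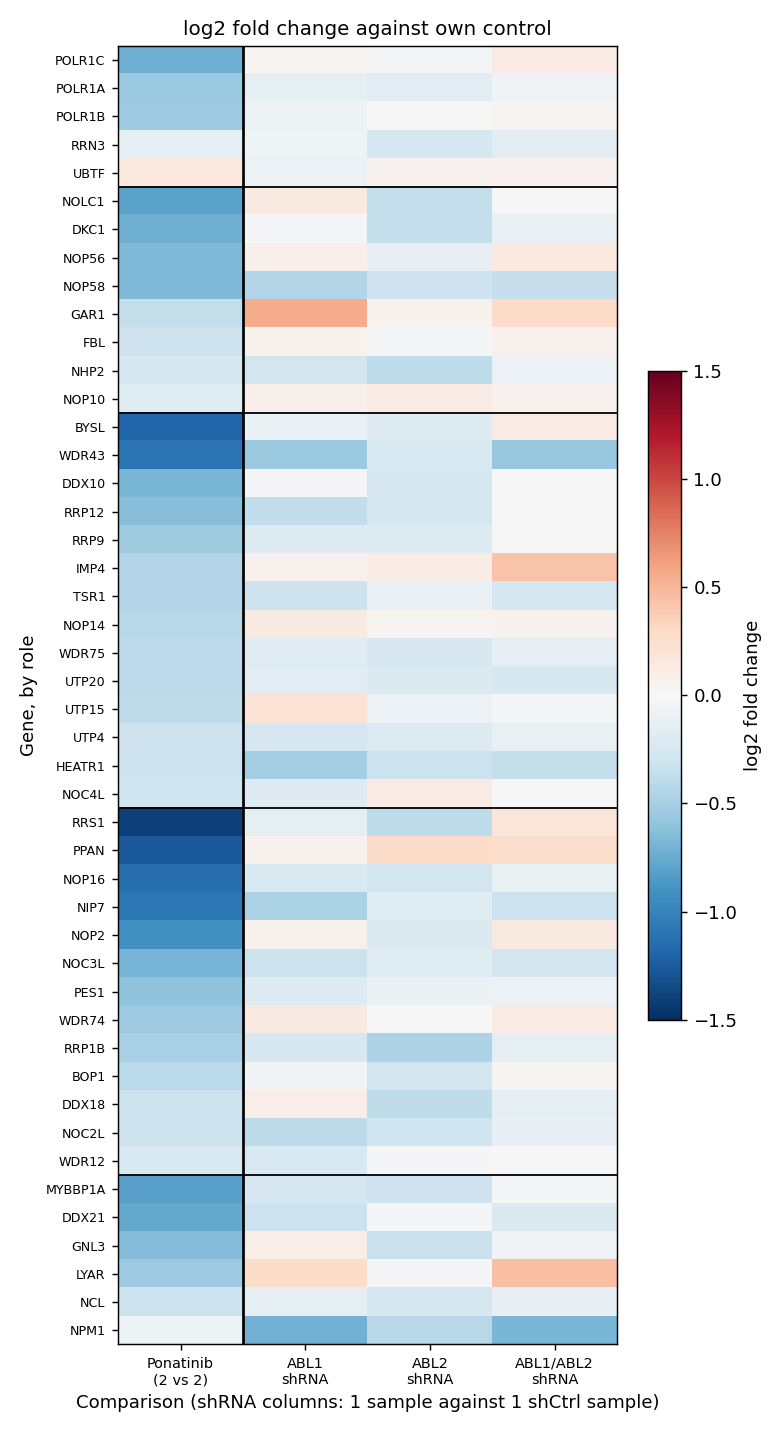
Heat map of the log2 fold change of the 46 genes (rows, by role) with Ponatinib against DMSO (2 samples each) and with each shRNA against shCtrl (1 sample each). The Ponatinib column is blue, down to -1.40, except for UBTF at 0.16, while the shRNA columns are paler, between -0.72 and 0.56, and hold both signs.

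With ABL1 shRNA 1 member, NPM1, was lower by over 1.5-fold and 0 were higher, whereas 11.6% of all 16172 genes measured were lower and 12.5% higher. Among genes with a mean count of at least 100 these shares were 7.52% and 7.22%. The log2 fold was below 0 in 31 of 46 members (67.4%, against 49.6% of all genes and 50.4% of those with at least 100 counts), with a median of -0.14. The counting interval lay below 0 in 20 members and above 0 in 4. Intervals were not computed for all genes, so these counts have no background share and are not read as a result about the members. NPM1 was at 1199 CPM with shCtrl and 728 CPM with ABL1 shRNA (log2 fold -0.72, interval -0.76 to -0.68). WDR43 was at 61.2 and 41.6 CPM (-0.56, interval -0.72 to -0.39) and HEATR1, of the same UTP group, at 75.1 and 52.6 CPM (-0.51, interval -0.66 to -0.37). On the other side, GAR1 was at 29.0 and 42.5 CPM (0.56, interval 0.36 to 0.76), LYAR at 43.6 and 53.0 CPM (0.28, interval 0.11 to 0.45) and UTP15 at 27.9 and 32.3 CPM (0.21, interval -0.0038 to 0.43). By role the medians ran from -0.20 in the large subunit genes to 0.06 in the snoRNP genes. The median of the 110 other ribosome biogenesis genes was 0.02, with 2 lower and 3 higher.

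With ABL2 shRNA, where MYC was lowest of the 4 shRNA samples, 0 members were lower and 0 higher by over 1.5-fold, against 8.47% and 11.8% of all genes (4.30% and 5.67% of those with at least 100 counts). The folds were small and mostly of 1 sign: 39 of 46 were below 0 (84.8%, against 50.7% of all genes and 53.0% of those with at least 100 counts), with a median of -0.20. The counting interval lay below 0 in 27 and above 0 in none, again without a share of all genes to set beside these counts. RRP1B was lowest, at 80.5 CPM with shCtrl and 58.5 CPM with ABL2 shRNA (-0.46, interval -0.60 to -0.32). NPM1 was at 1199 and 896 CPM (-0.42, interval -0.46 to -0.38) and DDX18 at 87.8 and 67.2 CPM (-0.39, interval -0.52 to -0.25). The highest was PPAN, at 5.63 and 6.84 CPM (0.28), followed by NOP10 (0.13) and NOC4L (0.12), and the intervals of all 3 include 0. All 6 members with several functions were below 0, with a median of -0.28. Of the 110 other ribosome biogenesis genes 71.8% were below 0, with a median of -0.13, 1 lower and 0 higher.

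With ABL1/ABL2 shRNA 1 member, again NPM1, was lower by over 1.5-fold and 0 were higher, against 9.70% and 12.1% of all genes (5.59% and 6.25% of those with at least 100 counts). The signs were mixed, with 26 of 46 below 0 (56.5%, against 49.9% of all genes and 51.8% of those with at least 100 counts) and a median of -0.02. The counting interval lay below 0 in 12 members and above 0 in 5, also without a share of all genes to set beside these counts. NPM1 was at 745 CPM (-0.69, interval -0.72 to -0.65), WDR43 at 41.2 CPM (-0.57, interval -0.74 to -0.41) and HEATR1 at 58.7 CPM (-0.35, interval -0.50 to -0.21). LYAR was at 59.5 CPM (0.45, interval 0.28 to 0.61), IMP4 at 34.7 CPM against 25.9 CPM with shCtrl (0.42, interval 0.20 to 0.64) and GAR1 at 35.3 CPM (0.29, interval 0.076 to 0.50). The 110 other ribosome biogenesis genes had a median of -0.01, with 2 lower and 2 higher.

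**Figure D5:**
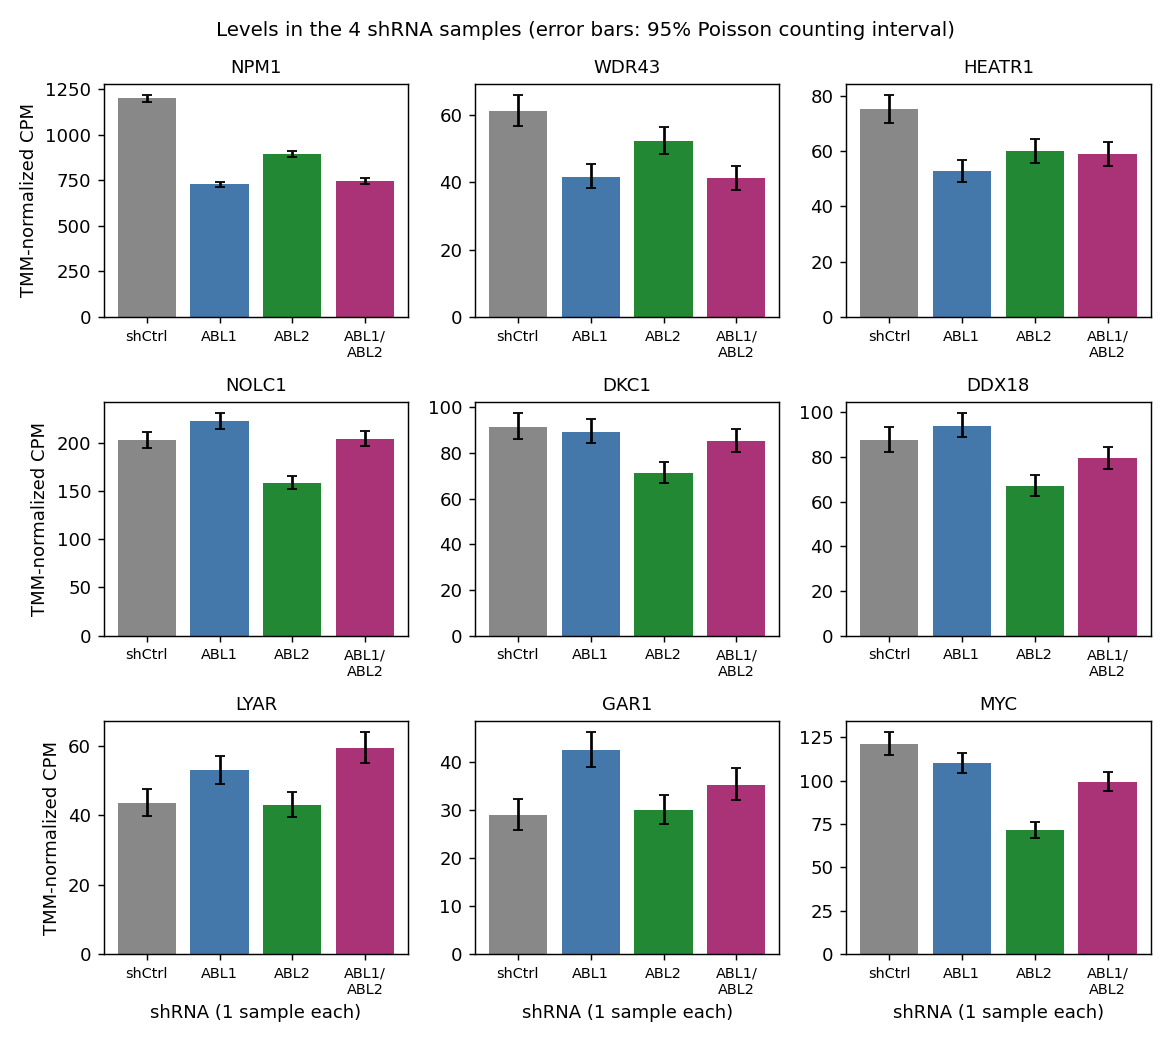
TMM-normalized CPM (vertical axes, from 0) in the shCtrl, ABL1 shRNA, ABL2 shRNA and ABL1/ABL2 shRNA samples, 1 each, for 8 members and MYC, with 95% Poisson intervals of the counts as error bars. NPM1 is highest in shCtrl (1199) and lowest with ABL1 shRNA (728), NOLC1, DKC1, DDX18 and MYC are lowest with ABL2 shRNA, and GAR1 is highest with ABL1 shRNA (42.5).

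In the same shRNA samples the genes that had fallen furthest with Ponatinib stayed within 1.5-fold of shCtrl. In the order shCtrl, ABL1 shRNA, ABL2 shRNA, ABL1/ABL2 shRNA, RRS1 was at 16.1, 14.5, 12.4 and 18.2 CPM. BYSL was at 44.4, 41.5, 38.8 and 48.5 CPM, and NOP16 at 20.2, 17.1, 16.6 and 18.6 CPM. WDR43, at 61.2, 41.6, 52.2 and 41.2 CPM, came nearest to that bound among the 6 members over 2-fold with Ponatinib. The 46 members held 0.469% of the counts with shCtrl and 0.405% to 0.422% in the knockdowns. These shares were below the 0.675% and 0.661% with DMSO and the 0.516% and 0.50% with Ponatinib. The DMSO and Ponatinib means were 39.2 and 14.8 CPM for RRS1, 94.4 and 41.1 CPM for BYSL and 48.1 and 21.9 CPM for NOP16. The 2 experiments were scaled separately, and what set their controls apart was not tested. NOLC1 (203, 222, 159 and 204 CPM) and DKC1 (91.6, 89.4, 71.3 and 85.4 CPM) were lowest with ABL2 shRNA. NPM1 stood the other way round, with no call after Ponatinib and the lowest folds in 2 of the 3 knockdowns. Its copies together held 16.3 CPM with shCtrl and 10.2 to 11.7 CPM in the knockdowns. Below shCtrl in all 3 knockdowns were 22 members, against 29.7% of all genes and 32.0% of those with at least 100 counts. Over the 46 members Spearman's rho of the Ponatinib log2 fold change with the folds of ABL1 shRNA, ABL2 shRNA and ABL1/ABL2 shRNA was 0.0060, 0.089 and -0.15, as a description across genes, since these comparisons share no control sample.

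The counts in the knockdowns depended on the rule. At a smaller threshold (lower by over 20% or higher by over 25%), 8 members were lower and 1 higher with ABL1 shRNA (23.0% and 23.7% of all genes), 9 lower and 0 higher with ABL2 shRNA (18.8% and 22.3%), and 4 lower and 2 higher with ABL1/ABL2 shRNA (20.5% and 22.6%). No member was past 2-fold in any knockdown, where 4.25%, 3.30% and 3.44% of all genes were lower and 4.86%, 4.73% and 4.71% higher, in the order ABL1, ABL2 and ABL1/ABL2 shRNA. In an edgeR fit of all 8 samples, which takes its spread from the DMSO and Ponatinib pairs alone and so is no replicate check of a knockdown, 9, 8 and 3 members were lower at an adjusted p under 0.05, against 11.4%, 7.68% and 9.42% of 18275 genes. In that fit 1, 0 and 2 members were higher, against 10.6%, 7.89% and 8.43% of genes.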

How the data were processed

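RNA of 8 LM2 samples was sequenced after NEBNext Ultra library preparation on an Illumina instrument. The authors mapped the reads to hg38 with TopHat and deposited raw counts per Ensembl gene from HTSeq 0.6.0 (names and version from the submitters' processing notes and the study's methods), 1 file per sample. The strand setting and annotation release are not given in the sources used here. Of 58688 gene IDs, 54836 took a symbol and position from GENCODE 44 (GRCh38). Rows of the shRNA files that name no gene (no feature, 9.48% to 9.90%, and ambiguous reads, 6.12% to 6.32%) were left out.

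The 2 DMSO and 2 Ponatinib samples were compared on counts in edgeR 4.0.16 under R 4.3.3 (TMM, filterByExpr with a minimum count of 10, quasi-likelihood test, adjusted p under 0.05 by Benjamini-Hochberg over all genes tested). Each knockdown, 1 sample, was set against 1 shCtrl as log2 folds of TMM-scaled CPM, with 0.01 CPM added, and called past 1.5-fold. An exact permutation test of a single value with 2 against 2 samples cannot go below p = 0.333, so none was run. Counts of PCR reads are not independent molecules, and counting intervals cover counting error only. Samples of a group differed by more than counting error (chi-square per degree of freedom 1.40 for DMSO and 2.97 for Ponatinib). These values cannot say whether they came from separate libraries or cultures.

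The members and lists were chosen with earlier results of these data known. Values in every sample are given for the 3 members of each role with the largest log2 fold change past the test, for the 3 lowest and 3 highest in each knockdown, and, of the other list, for up to 4 falls and 4 rises. Other members were named after their values were seen. A marker of the fixed list is not reported here. On data simulated with the depth and spread of the Ponatinib comparison over 15788 genes, 99 of 100 genes changed by 1 on the log2 scale and 77 of 100 changed by 0.5 were recovered, with 18 unchanged genes called. Only those genes were changed, up and down in equal number and away from the lowest levels. In the data 2511 genes fell and 2406 rose, so these shares do not carry over directly to the test as run. Alternatives were other scalings, filters, folds and fits, DESeq2 1.42.0, the replicate block and leaving out each sample.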

Additional observations from a re-analysis of the deposited data

How the results depend on the processing

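With every sample kept, the count of members that fell with Ponatinib was 40 in the fit reported and 40 with DESeq2's size factors. It was 39 with total counts only, 41 with either other filter and 37 with the DESeq2 test. Calls of single members that changed when a sample was left out are given with their roles. Of all 16031 genes tested, 2511 fell in the fit reported and 2489 with DESeq2's size factors. With total counts only 2077 fell, and with the DESeq2 test 1481. Without a filter 2711 of 30424 genes fell, and with at least 10 counts in every sample 2444 of 14715. The median log2 fold change of the members stayed between -0.55 and -0.49 over these alternatives and when each sample was left out in turn. By the study's rule 6 members fell. Members that rose numbered 1 (UBTF) with total counts only, a scaling that moved the median of all genes to 0.04 and called 2874 of them as higher. With the DESeq2 test 57 of the 110 other ribosome biogenesis genes fell and 0 rose, while 1481 of all 16031 genes fell and 1328 rose. When single samples were left out, the median log2 fold change of these 110 genes stayed between -0.40 and -0.36. Deviations from the group means of same-numbered samples had a correlation of 0.017 across 10278 genes, so no strong effect shared by repeat number was seen. With 2 samples a group this cannot say whether same-numbered samples were handled together. A replicate block on the repeat number gave 40 members that fell and 0 that rose, with a median of -0.54. In that fit 73 of the other ribosome biogenesis genes fell and 1 rose, while 2561 of all 16031 genes fell and 2423 rose.

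The counts of members past a fold in the knockdowns are small and depend on the fold. With ABL1 shRNA 8 were lower by over 20% and 1 higher by over 25%, 0 were lower at 2-fold, and 9 were lower and 1 higher in the edgeR fit of all 8 samples. With ABL2 shRNA 9 were lower by over 20% and 8 in that fit. With ABL1/ABL2 shRNA 4 were lower by over 20% and 2 higher by over 25%, 0 were lower at 2-fold, and 3 were lower and 2 higher in that fit. The median with ABL1/ABL2 shRNA, -0.02, turned to 0.025 with total counts only, where the median of all genes was 0.047. No knockdown sample could be left out, since each group is 1 sample. At the depth of these libraries the knockdown intervals of the least expressed members, such as PPAN, cover changes of either sign.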
